A study of Rattus norvegicus with 12 samples.

Results

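Heat shock proteins and chaperones are the genes described here, in 12 RNA sequencing libraries of cultured cardiomyocytes. They were taken by a rule on gene symbols: the Hsp70, Hsp110, small heat shock and J-domain families, Hsp90 alpha and beta, Bag1 to Bag6, Hsf1 and Hsf2, Cryab, and the subunits of the cytosolic chaperonin. The rule uses no measured values, but it was set with earlier results of these data known. The endoplasmic reticulum genes Hspa5, Hspa13, Dnajb9, Dnajb11, Dnajc3 and Dnajc10 were left out. This gave 84 of the 17312 genes in the files, of which 73 reached 1 FPKM (fragments scaled for transcript length and library size) in at least 3 libraries and were tested. The set is mostly but not wholly cytosolic: it also holds the mitochondrial chaperones Hspa9, Hspd1, Hspe1 and Dnaja3 and several J proteins of other membranes.

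The cells were neonatal rat ventricular cardiomyocytes of the Wistar strain, and all 12 libraries came from cells given an siRNA. The unstretched control and the stretched control groups had a control siRNA. The unstretched Wnt5a siRNA and the stretched Wnt5a siRNA groups had an siRNA that targets Wnt5a, which encodes a secreted signalling protein of the Wnt family. Each group had 3 numbered libraries, and the study's title places the work in mechanical signalling through Wnt5a and YAP in cardiac muscle cells. The sources used here do not give the degree or length of stretch. The labels do not say whether the libraries of a group came from separate cultures, and the spread that the p-values rest on may therefore be technical.

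Chaperones bind unfolded or newly made proteins and keep them from aggregating. Hsp70 proteins bind exposed stretches of a client, J proteins bring clients to them and start ATP hydrolysis, and nucleotide exchange factors such as the Bag proteins and Hsp110 let the client go. The chaperonin TRiC, also called CCT, is a ring that folds actin and tubulin among others, Hsp90 finishes the folding of kinases and receptors, and small heat shock proteins hold unfolding proteins without ATP. Heart muscle is rich in small heat shock proteins, which sit at the sarcomere, and the factor Hsf1 turns on many of these genes by binding the heat shock element in their promoters.

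The knockdown target was at 12.3, 10.4 and 11.6 FPKM in unstretched controls and at 6.15, 4.6 and 6.81 in unstretched Wnt5a siRNA libraries, a change of -0.87 ± 0.14 (SE) in log2(FPKM + 1) with an adjusted p of 0.00142. Under stretch it was at 6.52, 5.66 and 8.22 FPKM with control and at 6.22, 5.88 and 5.56 with Wnt5a siRNA (-0.17 ± 0.14, adjusted p 0.387). Wnt5a was thus not shown to differ between the stretched groups, and it gives no check of the labels there. Stretch with control siRNA itself lowered Wnt5a (-0.68 ± 0.14, adjusted p 0.00139), and its interaction was called (0.70 ± 0.20, adjusted p 0.0244). Whether differences by siRNA under stretch follow from less Wnt5a was not tested. All 11 cardiomyocyte markers found in the files were expressed, with summed levels of 19387 to 39492 FPKM, Ttn was not listed, and Col1a2 was listed at 0 in every library. Stretched control 3 stood apart from its group: the SD of its log2 differences over the tested chaperone genes was 0.392 and 0.362 to the other 2 libraries, against 0.137 to 0.256 for all other pairs of replicates. It was the lowest of its group for 48 of the 73 genes. Its cardiomyocyte markers summed to 27018 FPKM against 36434 and 39492, and its fibroblast markers to 9948 against 6075 and 5966.

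With control siRNA, stretch raised much of the chaperone system and lowered little of it. By the limma model described below, 34 of the 73 tested genes rose and 6 fell at a Benjamini-Hochberg adjusted p under 0.05. Across all 10518 tested genes 54.3% were called, 27.5% higher and 26.8% lower, so the share of chaperone genes called (54.8%) was close to that of all genes while their direction was uneven. The median change of the 73 was 0.24 in log2(FPKM + 1), against 0.01 for all tested genes. In 42 of the 73 the stretched and unstretched control libraries did not overlap, 34 of them higher and 8 lower, as in 58% of all genes. Without stretched control 3, 42 rose and 7 fell, against 29.2% and 28.1% of all genes.

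The split between genes that rose and fell depended on how the libraries were scaled. Summed FPKM were higher in the stretched control libraries (676014 to 709021) than in the unstretched ones (588509 to 598628). With each library scaled to the same total (TPM), 22 chaperone genes were higher and 15 lower, while 13.8% of all genes were higher and 42.7% lower. That scaling moved the median of all genes to -0.19 and of the 73 to 0.02. Of the 34 genes that rose, 21 kept their call under every one of the 21 alternatives (9 other settings and 12 omissions of 1 library) that tested them, as did all 6 that fell. Median ratio scaling, 1 of these settings, had factors of 1.00015 to 1.00607. The deposited values were already level by that measure, so it could hardly change a call and is no separate check.

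Under stretch, Wnt5a siRNA went with lower levels of many of these genes. Of the 73, 28 were lower than in stretched controls and 1, Hspa12b, was higher, against 14.2% lower and 13.2% higher among all genes (27.3% in either direction). The median change was -0.19, against 0.00 for all genes. In 36 genes the libraries of the 2 groups did not overlap, 30 lower and 6 higher, as in 37.6% of all genes. With TPM scaling, 22 were lower and 6 higher, against 7.71% and 20.8% of all genes. Leaving out stretched control 3 raised the count of lower genes to 40 (22.6% of all genes were then lower). Leaving out stretched control 1 or stretched Wnt5a siRNA 3 gave 16 and 18 (5.58% and 6.38% of all genes). Of the 28, 12 kept their call under every alternative that tested them: Bag2, Cct3, Tcp1, Cryab, Hspb3, Hspb7, Hspa1a, Hspa1b, Dnaja4, Dnajb4, Dnajc15 and Dnajc21. Both comparisons use the stretched control libraries, so a level that is high by chance there appears in both.

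**Figure D1:**
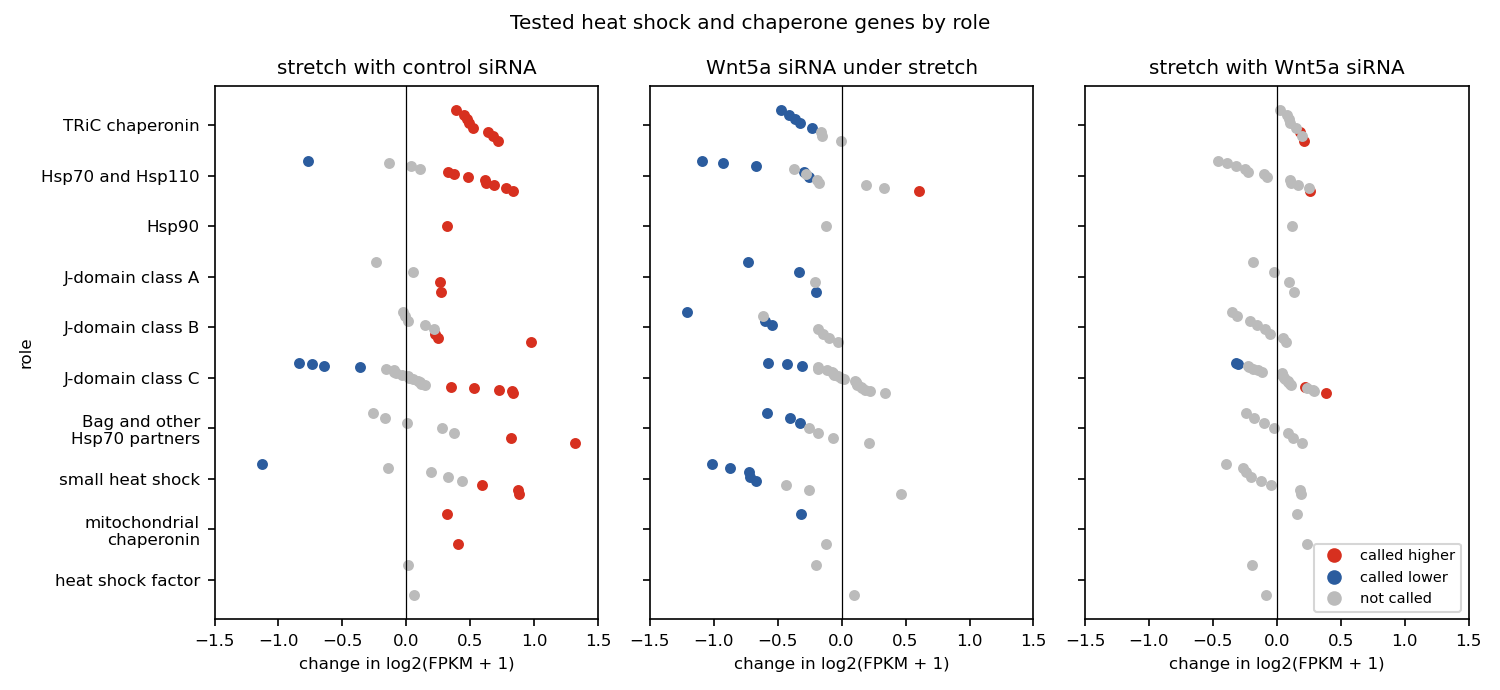
Change in log2(FPKM + 1) of each tested gene (points), grouped by role, for stretch with control siRNA (left), Wnt5a siRNA against control siRNA under stretch (middle) and stretch with Wnt5a siRNA (right). Red and blue mark genes called higher and lower at an adjusted p under 0.05, and all 8 chaperonin subunits lie to the right of 0 in the left panel.

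Promoter sequence was compared with these changes. RefSeq promoters of the rat assembly GRCr8, 250 bases before to 50 after each start, were found for 65 of the 84 genes. The 19 without one include Cryab, Hspa1b, Hsp90aa1 and Hsf1, which could not be searched. The motif searched was the heat shock element as 3 alternating units of GAA and TTC, written GAANNTTCNNGAA or, on the other strand, TTCNNGAANNTTC. It was present in 218 of all 27457 genes with a promoter (0.794%) and in 6 of the 65 (9.23%). The 6 were Hspa8, Hsph1, Hspd1, Hspe1, Dnaja1 and Cct4, and all 6 rose with stretch under control siRNA. With these 6 included, 28 of the 57 tested chaperone genes with a promoter rose, and 27.5% of all tested genes did. A link between the element and the rise was not tested. With TPM scaling the calls of Dnaja1, Hspd1 and Hspe1 were lost (limma adjusted p 0.699, 0.27 and 0.0846). In Dnaja1 and Cct4 the element lies after the start. The shorter form with 2 units, GAANNTTC or TTCNNGAA, which every longer element also contains, was in 16.7% of all genes and in 20 of the 65 (30.8%). Shown here, 5′ to 3′ on the strand of each gene and with the element in capitals, are the elements upstream of 3 genes that rose, then 2-unit elements of Bag3 and Hspb1, known heat shock genes that were not called with stretch.
Hspa8 (chr8:50080281-50080333, plus strand): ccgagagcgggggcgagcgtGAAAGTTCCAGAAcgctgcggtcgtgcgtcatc
Hspa8 (chr8:50080439-50080491, plus strand): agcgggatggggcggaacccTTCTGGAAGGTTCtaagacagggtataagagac
Hsph1 (chr12:10427312-10427364, plus strand): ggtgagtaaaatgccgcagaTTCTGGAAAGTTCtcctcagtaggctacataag
Hspe1 (chr9:64084242-64084299, plus strand): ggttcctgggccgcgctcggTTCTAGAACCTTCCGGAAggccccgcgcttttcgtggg
Bag3 (chr1:192533308-192533355, plus strand): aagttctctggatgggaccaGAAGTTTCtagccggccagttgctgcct
Hspb1 (chr12:26432403-26432450, minus strand): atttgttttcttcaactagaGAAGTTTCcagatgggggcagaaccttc
Hspb1 (chr12:26432383-26432430, minus strand): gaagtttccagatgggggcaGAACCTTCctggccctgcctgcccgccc
The Hspa8 promoter holds 2 such elements, and the 2 windows of Hspb1 overlap. The run in Hspe1 is longer than 1 element and is shared: Hspd1, which starts on the other strand, has the same 18 bases (chr9:64084262-64084279) at its far end, between 225 and 242 bases before its start, and those bases lie 48 to 65 before the start of Hspe1. A match is a description of these letters and shows no binding. Of the 28 genes with a promoter in the table that rose, 13 had a 2-unit element (46.4%), as did 6 of the 26 not called (23.1%) and 0 of the 3 that fell. The 13 include the 6 genes with the 3-unit element, so this count is not separate from the earlier one.

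The cytosolic chaperonin TRiC changed as a whole with stretch. All 8 tested subunits rose with control siRNA, by 0.39 to 0.72 on the log2 scale with a median of 0.50. In all 8 the 3 stretched libraries lay above the 3 unstretched ones. Among all genes 27.5% rose, and in 58% the libraries of these 2 groups did not overlap in either direction. Cct3 stood at 184, 176 and 174 FPKM in unstretched controls and 312, 311 and 259 in stretched controls, a change of 0.72 ± 0.08 (SE) with an adjusted p of 1.13e-05. Tcp1, the first subunit described, stood at 159.5, 139.9 and 142 FPKM and then 251, 242 and 217, a change of 0.68 ± 0.08 (adjusted p 2.04e-05). The most abundant subunit was Cct5, at 218, 224 and 218 FPKM without and 315, 303 and 285 with stretch (0.45 ± 0.06, adjusted p 4.39e-05). Stretched control 3 was the lowest of its group for 6 of the 8 subunits, yet above every unstretched control. Cct4 (139, 129.7 and 139.9, then 197, 198 and 192 FPKM) and Cct8 (106, 99.4 and 101, then 141, 144 and 146 FPKM) were tight within groups, with adjusted p of 1.1e-05 and 2.01e-05. Cct2 had the smallest change, 0.39 ± 0.07, and was not called with TPM scaling (adjusted p 0.0614), where the other 7 subunits stayed higher. With that scaling 13.8% of all genes were higher.

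With Wnt5a siRNA the median subunit stood between the 2 control groups. As a percentage of the unstretched control mean, the median subunit was at 139% to 147% in stretched controls, 119% to 126% in stretched Wnt5a siRNA libraries and 106% to 113% in unstretched Wnt5a siRNA libraries. Under stretch, 5 of the 8 were lower with Wnt5a than with control siRNA, against 14.2% of all genes. Tcp1 was at 182, 172 and 158 FPKM, below all 3 stretched controls, a difference of -0.47 ± 0.08 (adjusted p 0.00263). Cct3 was at 219, 233 and 209.7 FPKM (-0.41 ± 0.08, adjusted p 0.00405), and Cct7 at 135, 132 and 121 against 173, 171 and 144 in stretched controls (-0.33 ± 0.08, adjusted p 0.00994). Cct6a, at 118, 119.6 and 108 against 164, 154 and 131 FPKM (-0.37 ± 0.09, adjusted p 0.011), also fell, as did Cct4 (-0.23 ± 0.05, adjusted p 0.0107), whose call was lost with TPM scaling (adjusted p 0.117). Cct5 (-0.16 ± 0.06) and Cct8 (-0.15 ± 0.06) had adjusted p of 0.0556 and 0.0555. Cct2 stood apart, at 174, 178 and 181 FPKM in stretched control and 192, 169 and 172 in stretched Wnt5a siRNA libraries, with overlapping groups. The difference between the 2 stretch responses was itself called for 7 of the 8, all with a smaller response under Wnt5a siRNA, at -0.58 to -0.27. Among all genes 12.1% had a lower response under Wnt5a siRNA by this interaction. The call for Cct5 (-0.27 ± 0.08, adjusted p 0.0324) was lost under 12 of the 20 alternatives.

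**Figure D2:**
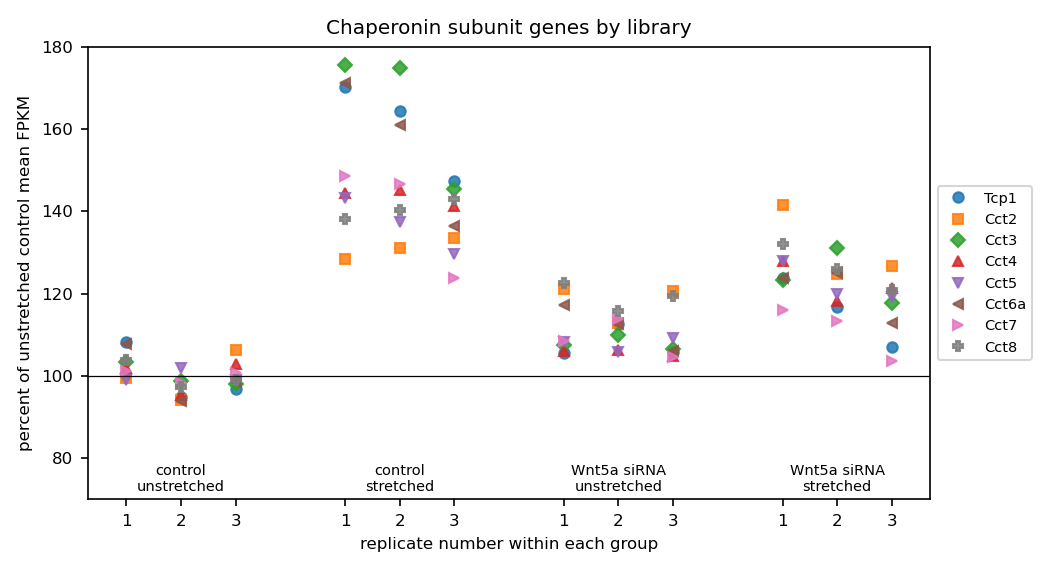
FPKM of the 8 chaperonin subunits in each of the 12 libraries, as a percentage of the subunit's mean in the 3 unstretched control libraries (line at 100, axis from 70), by replicate number within each group. The subunits lie between 124% and 176% in stretched control libraries and between 104% and 142% in stretched Wnt5a siRNA libraries.

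In the Hsp70 and Hsp110 family, 8 of 12 tested genes rose with stretch under control siRNA and 1 fell, against 27.5% and 26.8% of all genes. Hspa8, the constitutive cytosolic Hsp70 and the most abundant of them, was at 451, 439 and 463 FPKM in unstretched and 733, 712 and 642 in stretched controls. It rose by 0.62 ± 0.07 (adjusted p 1.72e-05) with no overlap. Its levels with Wnt5a siRNA were 489.8, 499 and 477 FPKM without and 617, 591 and 545 with stretch, so it also rose there, by 0.26 ± 0.07 (adjusted p 0.0261), a call lost with TPM scaling (adjusted p 0.114). Hsph1, an Hsp110 that acts as nucleotide exchange factor, went from 39.6, 34.4 and 32.5 to 56.3, 54.3 and 53.5 FPKM with control siRNA (0.61 ± 0.08, adjusted p 3.94e-05). With Wnt5a siRNA it was at 43.2, 47.7 and 41.8 FPKM without stretch and 47.2, 49 and 47.2 with it. Hspa4, the other abundant Hsp110, went from 100.3, 93.1 and 93.9 to 125, 126 and 111 FPKM (0.33 ± 0.07, adjusted p 0.00122), and was at 101, 101 and 92.5 FPKM in stretched Wnt5a siRNA libraries (-0.29 ± 0.07 against stretched controls, adjusted p 0.0091). Hspa9, the mitochondrial Hsp70, went from 189, 190.5 and 206 to 258, 267 and 233 FPKM (0.37 ± 0.07, adjusted p 0.000589). The calls of Hspa4 and Hspa9 were lost with TPM scaling (adjusted p 0.15 and 0.0852).

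The stress-inducible Hsp70 genes were low in every group. Hspa1b was at 8.5, 6.06 and 5.78 FPKM in unstretched and 15.7, 12.9 and 8.86 in stretched controls, and at 5.9, 8.36 and 5.03 and 5.26, 5.77 and 4.51 with Wnt5a siRNA. All stretched controls lay above the other 9 libraries, with changes of 0.78 ± 0.21 with stretch (adjusted p 0.00679) and -1.10 ± 0.21 with Wnt5a siRNA under stretch (adjusted p 0.00441). Its near-identical copy Hspa1a was at 1.63, 1.1 and 1.2 FPKM in unstretched controls, 2.43, 3.13 and 1.36 in stretched controls and 0.731, 0.815 and 0.553 in stretched Wnt5a siRNA libraries. How the authors divided reads between the copies is unknown, and neither level is certain. Hspa1a changed by 0.48 ± 0.19 with stretch (adjusted p 0.0419, lost under 12 of the 20 alternatives that tested it) and by -0.92 ± 0.19 with Wnt5a siRNA under stretch (adjusted p 0.00581). Changes of such low genes are understated by the added 1 FPKM. Hspa2, known from testis, was at 5.53, 3.04 and 3.59, then 8.61, 6.89 and 7.98 FPKM in the control groups and at 6.25, 7.67 and 6.45, then 6.37, 7.5 and 5.04 with Wnt5a siRNA. It rose with stretch under control siRNA (0.83 ± 0.17, adjusted p 0.00156) and the 2 responses differed by -0.93 ± 0.25 (adjusted p 0.0182). Hspa4l, an Hsp110 relative, was at 1.99, 1.59 and 1.89 FPKM in unstretched controls, 3.59, 2.45 and 4.85 in stretched controls and 1.64, 1.77 and 2.13 in stretched Wnt5a siRNA libraries (0.68 ± 0.17 and -0.67 ± 0.17, adjusted p 0.00519 and 0.0158). Going the other way, Hspa12a, a distant relative, fell with stretch from 2.26, 2.47 and 2.48 to 0.743, 1.02 and 1.24 FPKM (-0.77 ± 0.13, adjusted p 0.000254). Hspa12b, at 2.25, 3.94 and 4.75 FPKM in stretched control and 6.02, 6.14 and 5.49 in stretched Wnt5a siRNA libraries, was higher with Wnt5a siRNA (0.61 ± 0.17, adjusted p 0.0212), a call lost under 6 of 21 alternatives, among them without stretched control 1 (0.37, adjusted p 0.0619). Endothelial markers summed to 38.6 to 47.3 and 51.2 to 85.9 FPKM in those 2 groups, and the part of those cells in the result was not tested.

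Among the factors that open or bind Hsp70, Bag2 and Bag1 rose with stretch under control siRNA. Bag2, which slows the hand-over of clients to degradation, had the largest rise of all 73 genes. It was at 39, 35.4 and 34.9 FPKM in unstretched controls and 109.6, 91.7 and 78.3 in stretched controls, a change of 1.32 ± 0.11 (adjusted p 3.58e-06). The Wnt5a siRNA libraries lay between these groups, at 54.1, 62.8 and 51.6 FPKM without and 60.2, 65.9 and 58 with stretch. Against its own control each was called: 0.61 ± 0.11 without stretch (adjusted p 0.00262) and -0.58 ± 0.11 under stretch (adjusted p 0.00473). The difference between the 2 stretch responses, -1.19 ± 0.16 (adjusted p 0.00136), was the interaction with the smallest p of the set. Bag1, which links Hsp70 to the proteasome, followed the same order of groups. It stood at 48.5, 47.9 and 50.4, then 92.8, 75.7 and 92.8 FPKM in the control groups (0.81 ± 0.08, adjusted p 1.09e-05) and at 61, 58.9 and 60.1, then 76.3, 66.3 and 65.1 FPKM with Wnt5a siRNA (0.20 ± 0.08, adjusted p 0.132).

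Bag3, a partner of small heat shock proteins in muscle, gave a divided picture. It was at 87.5, 82.4 and 90.4 FPKM in unstretched and 93.7, 104 and 67.3 in stretched controls, with 2 stretched libraries above and the third below the unstretched ones (0.01 ± 0.12, adjusted p 0.973). Without stretched control 3 it was called higher (0.19, adjusted p 0.0259). In stretched Wnt5a siRNA libraries it was at 66.3, 68 and 62.5 FPKM, lower than in stretched controls by the model (-0.40 ± 0.12, adjusted p 0.0285) with stretched control 3 within their range. With TPM scaling that call was lost (adjusted p 0.067). Bag6, at 61.9 to 84.4 FPKM, the low genes Bag4 and Hspbap1 (the latter in the set by symbol alone), and the exchange factor Hspbp1 (29.1, 25.4 and 24.4, then 35.4, 36.6 and 25.4 FPKM in the controls) were called in none of the 5 comparisons with the main settings. Each was called with stretch under control siRNA in some alternatives. Bag6 was lower there with TPM scaling (-0.39, adjusted p 0.0025), quantile normalization (-0.28, adjusted p 0.00823) and without stretched control 2 (-0.26, adjusted p 0.0326).

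**Figure D3:**
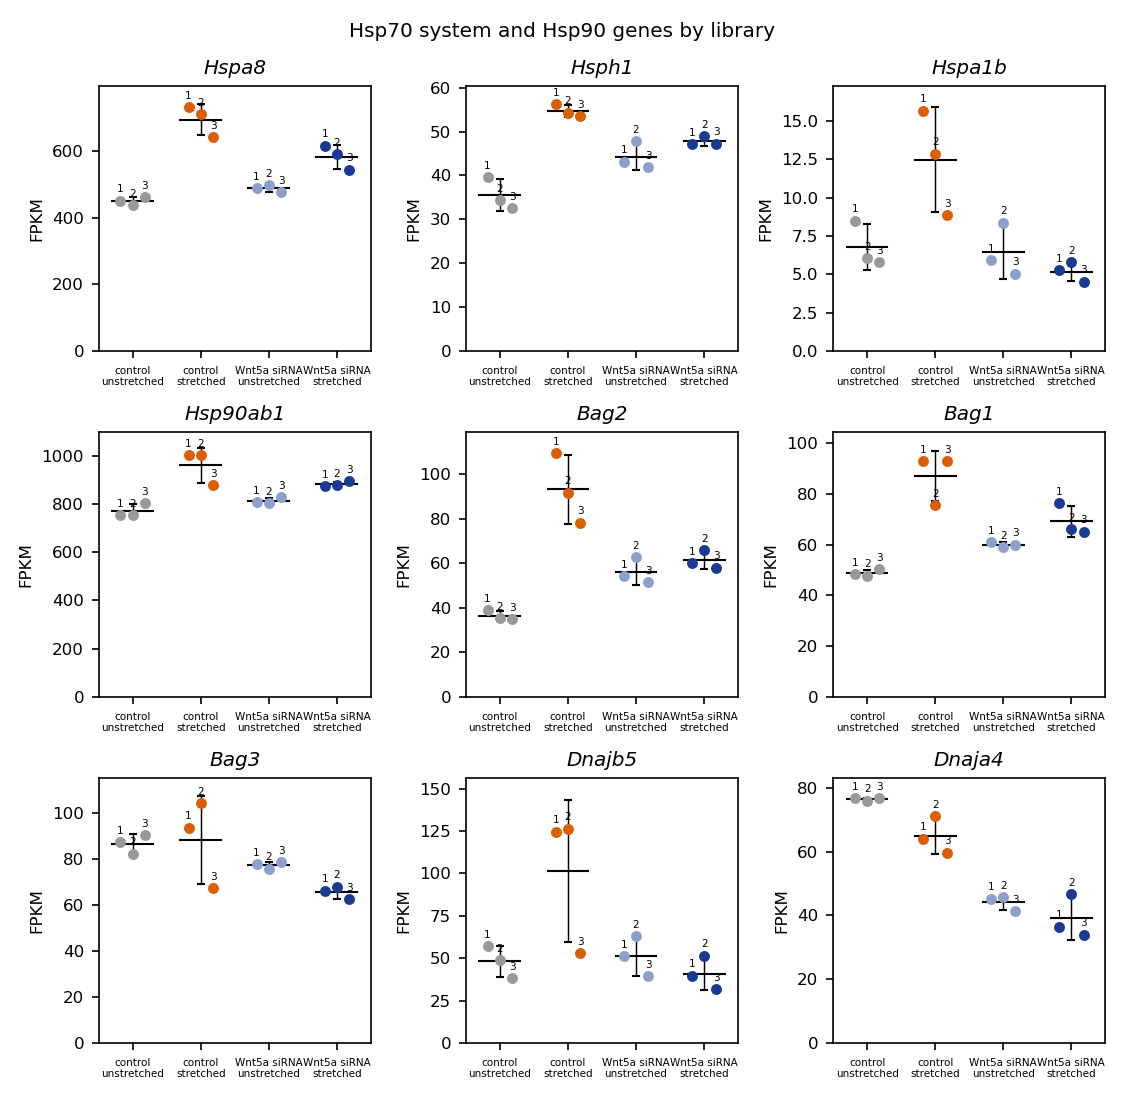
FPKM of 9 genes of the Hsp70 and Hsp90 systems in each library (points, labelled with the replicate number), with the group mean and SD of 3 libraries (bars). Bag2 is at 78.3 to 109.6 FPKM in stretched controls and at 34.9 to 65.9 in the other 9 libraries, while in Bag3 and Dnajb5 stretched control 3 lies apart from the other 2.

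J proteins, which hand clients to Hsp70, were less uniform. Of the class A proteins, Dnaja1 (141, 141 and 154, then 169.8, 192 and 163 FPKM) and Dnaja2 (108, 101 and 108, then 128, 135 and 119 FPKM) rose with stretch under control siRNA by 0.27 ± 0.08 and 0.27 ± 0.06 (adjusted p 0.0137 and 0.00244). Both calls were lost with TPM scaling (0.04 for each, adjusted p 0.699 and 0.584), where the median of the 4 class A genes turned to -0.07. Dnaja4 was lower with Wnt5a siRNA in both settings. It was at 76.8, 76 and 76.7 FPKM in unstretched and 64, 71.2 and 59.7 in stretched controls, and at 45.2, 45.8 and 41.3 and 36.5, 46.7 and 34 with Wnt5a siRNA. The differences by siRNA were called both without stretch (-0.78 ± 0.10, adjusted p 0.000667) and with it (-0.73 ± 0.10, adjusted p 0.00161), and the interaction, which compares these 2 differences, was 0.05 ± 0.15 (adjusted p 0.824). Stretched controls also lay below unstretched ones with no overlap (-0.24 ± 0.10, adjusted p 0.0709), a difference called under 6 alternatives, among them TPM scaling (-0.46, adjusted p 0.0013) and the replicate block (adjusted p 0.0341). Dnaja3, the mitochondrial member, was lower with Wnt5a siRNA in both settings as well (-0.26 ± 0.08 and -0.33 ± 0.08, adjusted p 0.0235 and 0.00935).

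In class B, 3 of 8 tested genes rose with stretch under control siRNA and 3 were lower with Wnt5a siRNA under stretch. Among all genes the shares were 27.5% and 14.2%. Dnajb5 moved most. It was at 56.9, 49 and 38.3 FPKM in unstretched and 125, 126 and 52.9 in stretched controls, and at 51, 63 and 39.3 and 39.6, 51.5 and 31.7 with Wnt5a siRNA. Stretched controls 1 and 2 were above every other library, whereas stretched control 3 was within the unstretched range. The changes were 0.97 ± 0.30 with stretch (adjusted p 0.0154) and -1.21 ± 0.30 with Wnt5a siRNA under stretch (adjusted p 0.0132), and leaving out stretched control 1 ended both calls (0.77 and -1.01, adjusted p 0.0668 and 0.0643), as did leaving out stretched control 2 (adjusted p 0.063 and 0.0537). The first call was also lost without unstretched control 3 and the second without stretched Wnt5a siRNA 3 (adjusted p 0.0644 and 0.0607). Dnajb1, the partner of Hsp70 in the heat shock response, changed little, from 24.9, 23.9 and 24.4 to 29, 32.2 and 26.3 FPKM (0.24 ± 0.08, adjusted p 0.0234), and with TPM scaling by 0.02 (adjusted p 0.808). Dnajb12 rose by 0.23 ± 0.08 (adjusted p 0.0328), a call likewise lost with TPM scaling (adjusted p 0.942). Dnajb2 (67.7, 73.3 and 45 FPKM in stretched control, 40, 47.9 and 37.1 in stretched Wnt5a siRNA libraries) and Dnajb4 (99.7, 90.9 and 62.6, against 56, 56.2 and 50.8 FPKM) were lower with Wnt5a siRNA under stretch (adjusted p 0.022 and 0.00908). With TPM scaling the class B median for stretch turned to -0.04, and without stretched control 3 the genes that rose were 6 of 8 (29.2% of all genes). Dnajb3, a low gene, was at -0.03 with all libraries and was called higher without stretched control 3 (0.30, adjusted p 0.0498).

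Class C, which is held together by the J domain alone, held genes that rose and genes that fell: 5 and 4 of 21 with stretch under control siRNA. The 42.9% called was below the 54.3% of all genes (27.5% higher and 26.8% lower). Dnajc25 went from 12.6, 12 and 12.8 to 24, 21.7 and 23.5 FPKM (0.84 ± 0.10, adjusted p 2.88e-05). It also rose with stretch under Wnt5a siRNA, from 14.8, 11.6 and 15.3 to 20.3, 17.2 and 17.7 FPKM (0.39 ± 0.10, adjusted p 0.0212). The ribosome biogenesis factor Dnajc21 was at 19, 16.5 and 18.8, then 34.6, 30.7 and 27 FPKM in the control groups (0.73 ± 0.11, adjusted p 0.000165) but at 21.2, 17.6 and 19.5, then 19.7, 23.1 and 18 with Wnt5a siRNA. Dnajc2, which works at the ribosome, rose from 16.8, 16.2 and 14.6 to 25.6, 22 and 22.6 FPKM (0.53 ± 0.09, adjusted p 0.000443). Dnajc15, of the mitochondrial inner membrane, rose by 0.35 ± 0.10 (adjusted p 0.0123, 0.252 with TPM scaling) and was lower with Wnt5a siRNA under stretch (-0.43 ± 0.10, adjusted p 0.0113). The fifth gene that rose, Dnajc22, was at 2.76, 4.89 and 4.99 and 5.91, 7.5 and 11.6 FPKM (0.83 ± 0.21, adjusted p 0.00558). The 4 that fell were Dnajc28 (7.4, 7.58 and 9.65, then 2.85, 4.73 and 5.08 FPKM, -0.84 ± 0.18), Dnajc4 (-0.74 ± 0.16), Dnajc12 (14, 10.7 and 13.7, then 7.54, 7.49 and 8.34 FPKM, -0.64 ± 0.12) and Dnajc16 (-0.36 ± 0.09), with adjusted p from 0.000631 to 0.00418. Dnajc28 and Dnajc12 were already lower without stretch in Wnt5a siRNA libraries, at 5.88, 3.91 and 5.45 and at 9.58, 8.01 and 8.4 FPKM. With stretch they were at 5.95, 5.52 and 4.95 and at 10.7, 8.66 and 8.47 FPKM there. The most abundant class C genes, Dnajc7, Dnajc8 and Dnajc5, changed by 0.01, 0.02 and 0.09 (adjusted p 0.906, 0.815 and 0.326). On the TPM scale Dnajc7 and Dnajc8 were called lower (-0.21 and -0.20, adjusted p 0.0463 and 0.0174). Class C then had 4 higher and 10 lower genes, against 13.8% and 42.7% of all genes.

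Hsp90ab1, the constitutive cytosolic Hsp90, was the next most abundant gene of the set after Cryab. It was at 754, 754 and 804 FPKM in unstretched and 1001, 1001 and 877 in stretched controls, a small rise of 0.31 ± 0.07 (adjusted p 0.00187) that was not called with TPM scaling (0.09, adjusted p 0.291) or quantile normalization (0.01, adjusted p 0.936). With Wnt5a siRNA it was at 806, 803 and 828 FPKM without and 873, 879 and 894 with stretch. Hsp90aa1, its inducible partner, was listed at 0 in all 12 libraries. Every cell uses that gene, so the listing may be a failed estimate and says nothing of its level. The heat shock factors were called in none of the 5 comparisons with the main settings: Hsf1 was at 18.7, 19.6 and 17 FPKM in unstretched and 19.3, 21.7 and 15.2 in stretched controls (0.01 ± 0.11, adjusted p 0.944), and Hsf2 at 25.5, 29 and 30.4 and 26.4, 32.4 and 29.7 (0.06 ± 0.10, adjusted p 0.658). Without stretched control 3, Hsf1 was called lower with Wnt5a siRNA under stretch (-0.34, adjusted p 0.00998). Its interaction was then called too (-0.34, adjusted p 0.0467). Without unstretched Wnt5a siRNA 2, Hsf2 was called higher with Wnt5a siRNA in unstretched cells (0.34, adjusted p 0.0396). These are transcript levels, and the activity of the factors was not measured.

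The small heat shock proteins include the most abundant chaperone transcript, Cryab (alpha B crystallin), which binds desmin and titin in the sarcomere. It was at 1599, 1360.0 and 1272 FPKM in unstretched and 3051, 2677 and 2118 in stretched controls, and at 1236, 1485 and 1054 and 1511, 1599 and 1160.3 with Wnt5a siRNA. All 3 stretched controls were above the other 9 libraries. It rose with stretch by 0.88 ± 0.17 (adjusted p 0.000737) and under stretch was lower with Wnt5a siRNA by -0.87 ± 0.17 (adjusted p 0.00455). Hspb3, a partner of Hspb2 in striated muscle, was likewise highest in stretched controls: 123, 109 and 108 FPKM unstretched and 219, 239 and 172 stretched with control siRNA, and 122, 151 and 88.6 unstretched and 103, 121 and 86.2 stretched with Wnt5a siRNA (0.87 ± 0.18 and -1.02 ± 0.18, adjusted p 0.00129 and 0.00339). Hspb8, which works with Bag3, rose from 87, 82.7 and 83.3 to 137, 142 and 107 FPKM (0.59 ± 0.11, adjusted p 0.000537).

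Hspb7 and Hspb1 were not called with stretch but were lower with Wnt5a siRNA under stretch. Hspb7, an abundant cardiac member, was at 860.2, 835 and 819 FPKM in unstretched controls, 1263, 1122 and 813 in stretched controls and 557, 796 and 573 in stretched Wnt5a siRNA libraries (0.32 ± 0.16 and -0.73 ± 0.16, adjusted p 0.109 and 0.00867). Hspb1, the classic Hsp27, was at 595, 538 and 517, then 973, 785 and 532 FPKM in the controls and 443, 508 and 407 in stretched Wnt5a siRNA libraries (0.43 ± 0.18 and -0.72 ± 0.18, adjusted p 0.0619 and 0.0151). In both genes stretched control 3 lay within or below the unstretched range and the other 2 stretched controls above it. Without that library both were called with stretch (Hspb7 0.51, adjusted p 0.00762 and Hspb1 0.67, adjusted p 0.00124). Hspb2 divided mainly by siRNA, at 395, 376 and 372 and 428, 425 and 226 FPKM in the control groups and 217, 250.0 and 206 and 205, 246 and 202 with Wnt5a siRNA, again except for stretched control 3 (-0.76 ± 0.19 without stretch, adjusted p 0.0124). Hspb6, at 144 to 246 FPKM, was called in none of the 5 comparisons with the main settings. It was called lower with Wnt5a siRNA under stretch in 3 alternatives, among them without stretched control 3 (-0.59, adjusted p 0.00631). Without that library its interaction was also called (-0.61, adjusted p 0.0289). Hspb11, an intraflagellar transport protein rather than a classic small heat shock protein, fell with stretch under control siRNA from 15.8, 12.1 and 17.4 to 5.1, 5.72 and 8.52 FPKM (-1.13 ± 0.17, adjusted p 0.000164).

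Several small heat shock genes are muscle genes, and the muscle signal itself differed between groups. The 11 cardiomyocyte markers summed to 27993 to 30844 FPKM in unstretched controls, 27018 to 39492 in stretched controls, 20659 to 24446 in unstretched and 19387 to 26936 in stretched Wnt5a siRNA libraries. The 12 fibroblast markers summed to 4264 to 4776, 5966 to 9948, 6185 to 6412 and 10150 to 10720 FPKM in the same order, and the 10 macrophage markers to 185 to 239, 332 to 559, 152 to 165 and 375 to 417. By the model, stretch with control siRNA raised 3 and lowered 5 of 11 tested cardiomyocyte markers and raised 8 of 11 fibroblast and 8 of 10 macrophage markers. It raised 27.5% and lowered 26.8% of all genes. Wnt5a siRNA under stretch lowered 3 cardiomyocyte markers and raised 6 fibroblast markers (14.2% and 13.2% of all genes). Of 8 smooth muscle markers it lowered 6 (median -0.63), and their sums were 3367 to 3905 FPKM in stretched Wnt5a siRNA libraries against 4369 to 7334 in stretched controls, with 3 raised by Wnt5a siRNA without stretch. The part of these cells in the chaperone changes was not tested. In such bulk libraries, fewer cells of a type and less RNA per cell cannot be told apart.

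**Figure D4:**
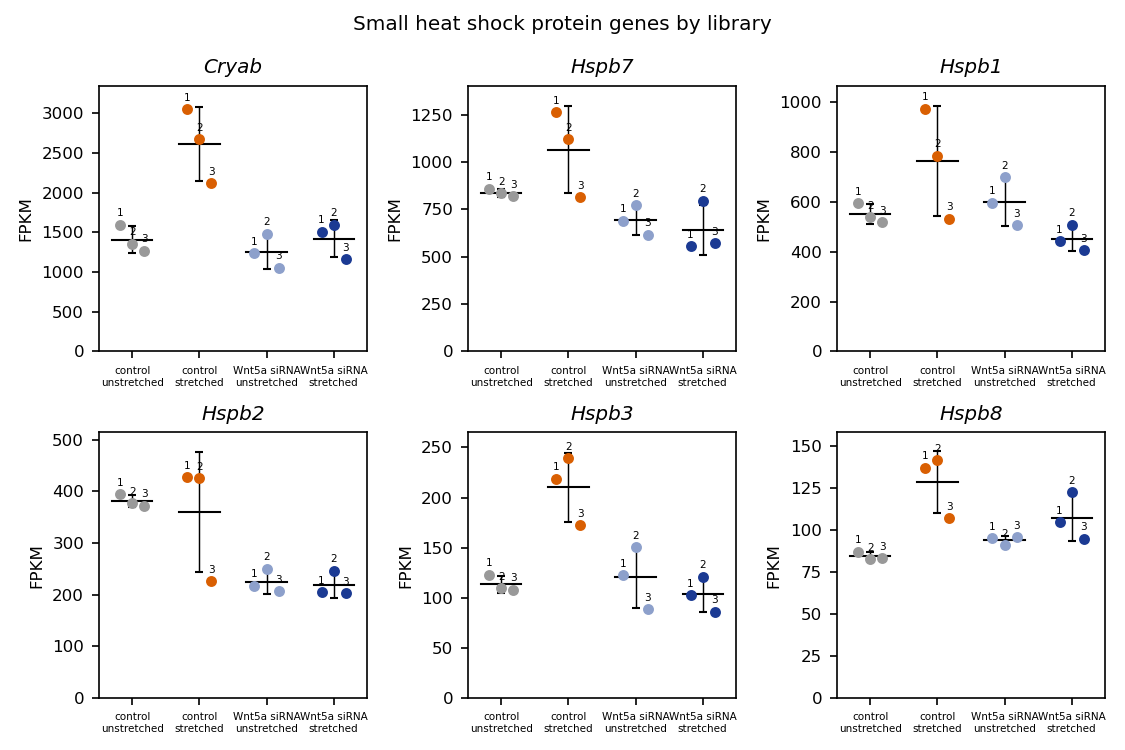
FPKM of 6 small heat shock protein genes in each library (points, labelled with the replicate number), with the group mean and SD of 3 libraries (bars). Cryab is at 2118 to 3051 FPKM in stretched controls and at 1054 to 1599 in the other 9 libraries, and stretched control 3 is the lowest of its group in all 6 genes.

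The mitochondrial chaperonin pair, whose promoters share the bases shown above, rose together with control siRNA. Hspd1 went from 189, 187 and 198 to 238, 256 and 222 FPKM (0.32 ± 0.07, adjusted p 0.00216) and its lid Hspe1 from 207, 213 and 251 to 302, 323 and 265 (0.41 ± 0.10, adjusted p 0.0039). With Wnt5a siRNA and stretch, Hspd1 was at 193, 205 and 178 FPKM, lower than in stretched controls (-0.31 ± 0.07, adjusted p 0.00845), and Hspe1 at 301, 272 and 246 FPKM (-0.12 ± 0.10, adjusted p 0.376). With TPM scaling neither was called with stretch (adjusted p 0.27 and 0.0846).

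Wnt5a siRNA also changed some of these genes in unstretched cells. Of the 73, 9 were higher and 6 lower (20.5%), against 14.6% higher and 13.9% lower of all genes (28.5% in either direction), with a median change of 0.03. The 2 with the smallest p were Dnaja4, described above, and Dnajc9, a histone chaperone, which was at 28.1, 27.6 and 28.5 FPKM with control and 37, 40.2 and 39.1 with Wnt5a siRNA (0.45 ± 0.07, adjusted p 0.00134). Besides Dnajc9, those that rose were Bag2, Bag1, Hspa2, Hsph1, Cct2, Cct8, Dnajc22 and Dnajc30. Hspb2, Dnaja3, Dnaja4, Dnajc12, Dnajc28 and Dnajc4 fell. Of these 15, 3 that rose (Bag2, Cct8 and Dnajc9) and 3 that fell (Dnaja4, Dnajc12 and Hspb2) kept their call under all 21. In 35 genes the libraries of the groups did not overlap, as in 49.4% of all genes.

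With Wnt5a siRNA, stretch changed few chaperone genes: 5 rose and 2 fell (9.59%), against 8.44% and 7.59% of all genes (16% in either direction). In 29 genes the libraries of the groups did not overlap, as in 40.7% of all genes. This comparison shares no library with stretch under control siRNA. Hspa8, Cct4, Cct5 and Dnajc25 rose in both, and 30 of the 34 genes that rose with control siRNA were not called with Wnt5a siRNA, as were 2252 of the 2889 among all genes. Rising in both comparisons was near the share of all genes, at 5.48% of the 73 against 5.89%. The others were Dnajc8, which rose from 66.5, 68.5 and 67 to 82.8, 77.1 and 75.4 FPKM (0.22 ± 0.07, adjusted p 0.0418), Dnajc9, which fell from 37, 40.2 and 39.1 to 30.1, 31.8 and 31.7 (-0.30 ± 0.07, adjusted p 0.0138), and Dnajc27 (-0.32 ± 0.09, adjusted p 0.0342). Deviations of same-numbered libraries of these 2 groups correlated weakly (0.143 to 0.242), which does not establish a pairing. With the replicate number as a block Cct5 and Dnajc8 were not called (adjusted p 0.057 and 0.0572), which left 3 that rose. With TPM scaling 0 rose and 10 fell (13.7%), against 4.77% and 16.9% of all genes, and each of the 7 calls was lost under at least 1 alternative.

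The 2 stretch responses were compared directly by the interaction of stretch and siRNA. It was called for 26 of the 73 genes (35.6%), with the response to stretch lower under Wnt5a siRNA for 23 and higher for 3, against 12.1% and 11.7% of all genes (23.8% in either direction). The 23 comprised 7 chaperonin subunits, 6 of the Hsp70 and Hsp110 family, 4 class C and 1 class B J proteins, 3 small heat shock proteins, Bag1 and Bag2. The 3 were Hspb11, Dnajc12 and Dnajc28, which fell with stretch under control siRNA. With TPM scaling 17 were lower and 4 higher, against 7.75% and 15.3% of all genes. Leaving out 1 library moved the count of lower genes most for unstretched control 2 (14), unstretched control 3 (15), stretched Wnt5a siRNA 3 (14) and stretched control 3 (37). The shares of all genes then lower were 8.32%, 8.1%, 7.71% and 18.1%. Of the 23, 13 kept their call under all 20 alternatives: Bag1, Bag2, Cct3, Cct6a, Cct7, Cct8, Tcp1, Dnajc21, Hspa2, Hspa4, Hspa4l, Hsph1 and Hspb3. Calls for Cryab (-0.70 ± 0.23, adjusted p 0.0464) and Dnajb5 (-1.29 ± 0.42, adjusted p 0.0442) were lost under 12 and 11 of them.

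**Figure D5:**
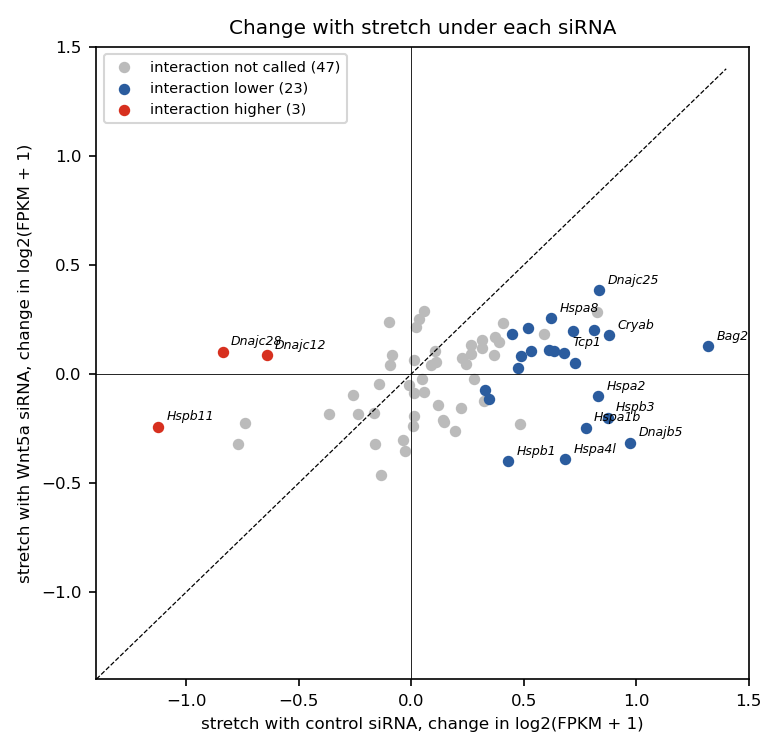
Change with stretch in log2(FPKM + 1) under control siRNA (horizontal axis) and under Wnt5a siRNA (vertical axis) for the 73 tested genes, coloured by the call of the interaction, with the dashed line where both responses are equal. The 23 genes with a lower response under Wnt5a siRNA lie below the line at the right, with Bag2 at 1.32 and 0.13.

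Other genes of the same pathways, from lists outside the rule, moved with stretch to different degrees. Of 20 tested co-chaperones of Hsp90 and Hsp70, 11 rose and 3 fell with control siRNA (median 0.26), led by the kinase adaptor Cdc37 (0.74 ± 0.06, adjusted p 3.21e-06) and the cyclophilin Ppid (0.55 ± 0.06, adjusted p 2.14e-05). Among all genes 27.5% rose and 26.8% fell. With TPM scaling 5 of the co-chaperones rose and 7 fell, against 13.8% and 42.7% of all genes. Under stretch, 2 of the 20 were higher and 4 lower with Wnt5a siRNA, against 13.2% and 14.2% of all genes. Among them were the muscle protein melusin, Itgb1bp2, which was lower (-0.75 ± 0.15, adjusted p 0.0051), and the Hsp90 partner Fkbp4, which was higher (0.36 ± 0.10, adjusted p 0.0167). Of 11 tested prefoldin subunits and other partners of the chaperonin, 6 rose and 1 fell with stretch under control siRNA, led by Pfdn1 (0.62 ± 0.09, adjusted p 7.72e-05), and 3 rose and 3 fell with TPM scaling, where their median turned to -0.05. Of 6 other mitochondrial chaperones only Clpx was called, and it fell (-0.46 ± 0.09, adjusted p 0.00107). By contrast all 18 listed chaperones of the endoplasmic reticulum rose with stretch under control siRNA (median 0.82), and 16 of 18 with TPM scaling. They were led by the co-chaperone Dnajc3 (adjusted p 3.58e-06) and the Hsp70 of that compartment, Hspa5 (1.02 ± 0.09, adjusted p 4.46e-06). With Wnt5a siRNA, 13 of the 18 rose with stretch (median 0.37), against 5 of the 73 cytosolic and related genes. Of all genes 8.44% rose. With TPM scaling 8 and 0 did, against 4.77% of all genes. The contrast of these counts was not tested. The response of the 18 was also smaller under Wnt5a siRNA. Their interaction was called lower for 11 and higher for 0 (median -0.39), against 12.1% and 11.7% of all genes.

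The 11 genes that were not tested were low or listed at 0. Bag5, Cct8l1 and Dnajb8 were listed at 0 in all 12 libraries, like Hsp90aa1, and Cct6b, Dnajb13, Dnajb7, Dnajc5b, Dnajc5g and Dnajc6 stayed below 0.662 FPKM or at it in every library. Hspb9 reached 1.25 FPKM in its highest library.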

How the data were processed

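RNA from 12 samples of neonatal rat cardiomyocytes was sequenced as stranded, polyadenylated mRNA, per the labels' protocols. TopHat2 2.1.1, Bowtie2, Cuffdiff 2.2.1 and the build rn6 are named in the submitters' processing notes. For each gene symbol the authors deposited FPKM, a level scaled for length and depth. The annotation, the strand setting and how multiply mapped reads were treated is information not given in the sources used here. Overlapping genes, antisense partners and near-identical copies are therefore uncertain. Read counts were not used. Of 1523 low genes, 1459 had values in whole ratios (tolerance 0.05), and the estimated FPKM worth of 1 fragment spanned a factor of 1.21 between libraries. That estimate was sought only within a narrow range around unstretched control 1, so a large difference in depth could not have appeared. Relative depth is therefore not shown to be even, and total depth is unknown.

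The 17312 genes were filtered to the 10518 with at least 1 FPKM in at least 3 libraries. Values were taken as log2(FPKM + 1), and changes are on that scale, where low genes change less than in FPKM. limma 3.58.1 in R 4.3.3 fitted the 4 group means over all 12 libraries (8 residual degrees of freedom, moderated variance with a trend), and p-values were adjusted over all 10518 genes by Benjamini-Hochberg with a threshold of 0.05. The 5 comparisons were stretch under each siRNA, Wnt5a siRNA with and without stretch, and their interaction. The fit was tested on simulated data. Intervals between groups rest on 3 libraries each.

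Members and gene lists were chosen with earlier results of these data known. Named are, per role, the 3 genes of highest mean and the 3 of smallest adjusted p for stretch with control siRNA, the 2 of smallest adjusted p in each other comparison, every called interaction and known inducible genes, and others were added after their values were seen. No protein sequence was used.

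Replicate numbers were checked as a pairing by correlating deviations from group means over tested genes. In the 2 Wnt5a siRNA groups same-numbered libraries correlated at 0.184, 0.242 and 0.143, and the block was used beside that comparison. The control pair gave 0.249, 0.0587 and -0.0194. Control with Wnt5a siRNA gave 0.219, 0.0947 and 0.231 under stretch and 0.16, 0.0583 and 0.186 without it. Correlations this small do not settle in which comparisons the numbers pair the libraries.

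Alternatives were scaling to a fixed total (TPM), median ratio scaling, quantile normalization, a pseudocount of 0.1, no filter, a filter at 5 FPKM, the replicate block, no variance trend, only the libraries compared, and leaving out each library.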

Additional observations from a re-analysis of the deposited data

Results flagged for a closer look

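The response to stretch differed between the 2 siRNAs for 26 chaperone genes, by limma's test of the interaction with Benjamini-Hochberg adjustment over 10518 genes. Each value is the change with stretch under Wnt5a siRNA minus the change under control siRNA, in log2(FPKM + 1), from 3 libraries per group. Among the chaperonin subunits the values were -0.58 for Tcp1, -0.53 for Cct6a, -0.52 for Cct3, -0.45 for Cct7, -0.41 for Cct8, -0.31 for Cct4 and -0.27 for Cct5. In the Hsp70 and Hsp110 family they were -1.08 for Hspa4l, -1.02 for Hspa1b, -0.93 for Hspa2, -0.50 for Hsph1, -0.40 for Hspa4 and -0.37 for Hspa8. Bag2 had -1.19 (adjusted p 0.00136) and Bag1 -0.61 (adjusted p 0.00493). The J proteins were at -1.29 for Dnajb5 (adjusted p 0.0442), -0.68 for Dnajc21, -0.46 for Dnajc15, -0.45 for Dnajc25 and -0.42 for Dnajc2. Among the small heat shock proteins Hspb3 had -1.07, Hspb1 -0.83 and Cryab -0.70 (adjusted p 0.0464).

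The value was above 0 for 3 genes that fell with stretch under control siRNA, at 0.94 for Dnajc28, 0.88 for Hspb11 and 0.73 for Dnajc12. In these 3, the unstretched Wnt5a siRNA libraries were already lower than the unstretched controls on average, at 5.08, 10.9 and 8.66 FPKM against 8.21, 15.1 and 12.8.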

How the results depend on the processing

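Counts below are genes of the 73 called higher, then lower. With TPM scaling, stretch with control siRNA gave 22 and 15 (34 and 6 without it), Wnt5a siRNA under stretch 6 and 22 (1 and 28), and stretch with Wnt5a siRNA 0 and 10 (5 and 2). The shares of all genes were then 13.8% and 42.7%, 20.8% and 7.71%, and 4.77% and 16.9%. Quantile normalization gave 2 higher for Wnt5a siRNA under stretch, against 11.2% of all genes. It gave 14 higher (19.2%) for Wnt5a siRNA without stretch (9), against 16.6% of all genes. For stretch with Wnt5a siRNA it gave 1 higher, against 7.72% of all genes. Without a variance trend, stretch with Wnt5a siRNA gave 3 and 4 (7.69% and 7.26% of all genes), and Wnt5a siRNA under stretch 2 higher (12.9%). With only the libraries compared, Wnt5a siRNA under stretch gave 0 and 13, against 5.51% and 5.97% of all genes. Wnt5a siRNA without stretch then gave 14 and 12 (9 and 6), or 19.2% and 16.4%, near the 17.6% and 17.4% of all genes. Stretch with Wnt5a siRNA gave 4 lower, against 10.3% of all genes. The replicate block gave 3 higher for stretch with Wnt5a siRNA, against 8.38% of all genes. In the other comparisons, whose numbers are also not shown to pair the libraries, it gave 36 and 7, 1 and 29, 10 and 6, and, for the interaction, 3 and 24. The shares of all genes were 27.4% and 26.8%, 13.6% and 14.2%, 15% and 14.4%, and 11.7% and 12.7%.

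Leaving out each library in turn gave 29 to 42 higher and 6 to 8 lower for stretch with control siRNA, 0 to 7 and 16 to 40 for Wnt5a siRNA under stretch, 5 to 11 and 3 to 10 for Wnt5a siRNA without stretch, 0 to 7 and 0 to 6 for stretch with Wnt5a siRNA, and 1 to 4 and 14 to 37 for the interaction. The shares of all genes moved too. In the same order they were 23.2% to 29.2% and 22.7% to 28.1%, then 4.9% to 21.8% and 5.58% to 22.6%. The last 3 comparisons had 8.81% to 19% and 8.05% to 18.4%, 4.69% to 12.6% and 3.38% to 12.3%, and 7.23% to 16.5% and 7.71% to 18.1%. Single genes that turned were Dnajb3 for stretch with control siRNA (0.30 without stretched control 3) and Dnajc7 and Dnajc8 with TPM scaling (-0.21 and -0.20). The cause was not tested in any of these. Median ratio scaling gave the same counts, but its factors of 1.00015 to 1.00607 could hardly move a value. A pseudocount of 0.1, no filter and a filter at 5 FPKM moved no count by more than 1.5 times. Depth is unknown, so genes near 1 FPKM, such as Hspa1a, Hspa1l and Hspa12a, have no counting interval.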

Other observations

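Cryab alone made up 14.0% to 18.8% of the summed FPKM of the 84 genes in the 9 libraries other than stretched controls, and 21.8% to 24.2% in stretched controls. The sum of all 84 was 9720 to 12625 FPKM in stretched controls and 7504 to 8830 in the other 9 libraries. With Cryab left out it was 7603 to 9574 FPKM in stretched controls and 6450 to 7231 in the others. Library totals differed as well: as a share of the summed FPKM of all genes the 84 made up 1.44% to 1.78% in stretched controls and 1.23% to 1.44% in the other 9, and stretched control 3 was then slightly below unstretched control 1.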
